A study of Mus musculus with 4 samples.

Results

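The genes described here encode the constitutive proteasome, the multi-subunit protease that degrades ubiquitin-tagged proteins in the cytosol and nucleus. They were chosen by symbol, as every gene whose platform annotation symbol starts with Psma, Psmb, Psmc or Psmd followed by a digit, leaving out the immunoproteasome genes Psmb8, Psmb9 and Psmb10. The rule found 36 of the 12393 named genes. Of these, 14 encode subunits of the core particle, Psma1 to Psma7 and Psmb1 to Psmb7. A further 17 encode subunits of the regulatory particle, Psmc1 to Psmc6 and 11 Psmd genes. Another 3, Psmd5, Psmd9 and Psmd10, encode chaperones that help to assemble the base of the regulatory particle. Psma8 encodes a core subunit restricted to testis, and Psmc3ip, which matches the symbol rule, encodes a factor of meiotic recombination and no proteasome subunit. Where a gene had several probe sets, the one of highest average value stands for it. Counts of subunits below refer to the 31 core and regulatory genes unless another group is named.

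The core particle is a barrel of stacked rings, with alpha subunits outside, which gate the entry, and beta subunits inside, of which Psmb5, Psmb6 and Psmb7 carry the catalytic sites. The regulatory particle sits on the end of the barrel: its base holds a ring of ATPases that unfold substrates, and its lid removes the ubiquitin chain. Immune cells can replace the catalytic subunits by those of the immunoproteasome when they are exposed to interferon. In bone marrow, precursors of granulocytes divide until they begin to mature, and mature granulocytes no longer divide.

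RNA came from 4 sorted bone marrow populations of untreated C57BL/6 mice of 8 weeks, backcrossed for at least 10 generations and housed free of specific pathogens, with 1 array for each. All mice carried a green fluorescent protein (GFP) reporter knocked into Gfi1, the gene of a transcriptional repressor that directs myeloid cells toward the granulocyte lineage. Gfi1-deficient monocytes were CD11b+, Gr1-low cells of a GFP:Gfi1 KI/KI mouse, which has no intact Gfi1 allele, and their label names no GFP gate. GFP-high monocytes and GFP-low monocytes were CD11b+, Gr1-low cells of GFP:Gfi1 KI/WT mice split by the reporter, and granulocytes were the CD11b+, Gr1-high cells of that genotype. The series asks how Gfi1 sets the choice between monocytes and granulocytes. No wild-type array without the knock-in was analysed here, and nothing in the sources used here says whether animals were pooled.

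The deposited values were read as log2, and the array medians lay between 5.91 and 6.01. A floor was set at the 40th percentile of all values (log2 5.18). The sum of linear values of 9 monocyte markers was 48000 on the array of Gfi1-deficient monocytes and 51400 on that of GFP-low monocytes, against 1990 on that of GFP-high monocytes and 4240 on that of granulocytes. The sum for 5 primary granule markers was 45000 on the array of GFP-high monocytes and 11800 on that of Gfi1-deficient monocytes, while GFP-low monocytes gave 2020 and granulocytes 1660. The markers thus go against the monocyte label of the GFP-high array. The name is kept below, also in "monocyte arrays", as the label of the sort and not as a cell type. For 7 mature neutrophil markers it was 80400 on the array of granulocytes and between 19100 and 48600 on the others. Gfi1 itself read 5.18 in Gfi1-deficient, 10.31 in GFP-high and 3.74 in GFP-low monocytes and 7.31 in granulocytes. The values in Gfi1-deficient and GFP-low monocytes lay below the floor, the former only just. It is not known here whether the Gfi1 probe set lies in the replaced sequence. Xist read 5.80 on the array of Gfi1-deficient monocytes against 9.56 to 10.93 on the others, and the Y-linked Eif2s3y read 8.31 there. Genotype and the sex of the mice cannot be told apart in any comparison with that array.

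All 31 subunit genes were above the floor on all 4 arrays, and all 31 had their lowest value on the array of granulocytes. Of the 8621 genes above the floor on at least 1 array, 36.7% had their lowest value there. With the second probe set the count was 27 of 31, but only 14 subunits have one above the floor and the rest kept the same probe set. Among these 14, the second probe sets of Psmc6, Psmd4, Psmd7 and Psmd11 were not lowest in granulocytes. The highest value lay on the array of Gfi1-deficient monocytes for 23 of 31 subunits (23.6% of the 8621 genes) and on that of GFP-high monocytes for 7 (24.0%). It lay on that of GFP-low monocytes for 1, Psma4 (14.0%), and on that of granulocytes for 0 (38.3%). In 30 of 31 subunits, all but Psma4, Gfi1-deficient monocytes read above GFP-low monocytes and these above granulocytes, an order that 32.1% of the 8621 genes had. With 1 array in each group there is no test and no spread between animals. In bulk RNA, fewer cells of a type and less RNA per cell cannot be told apart. The only error the arrays give is the disagreement between probe sets of the same gene, an SD computed over 2981 genes and given below as the probe-set SD.

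**Figure D1:**
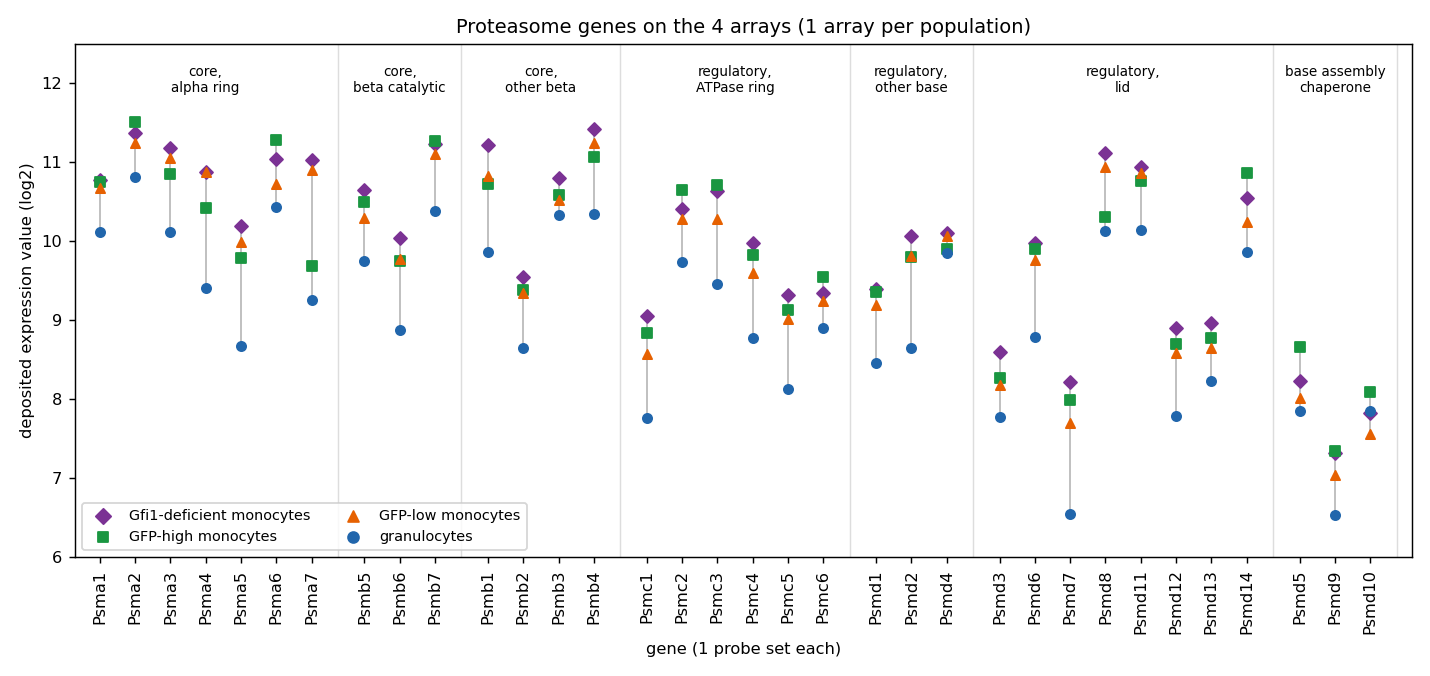
Deposited log2 value (vertical axis) of the 31 subunit genes and the 3 base assembly chaperones (horizontal axis, grouped by place in the complex) on the 4 arrays, 1 symbol for each population and a grey line from the lowest to the highest value. The blue circles of the granulocytes are the lowest symbol for all 31 subunits, and Psmd10 among the chaperones has its lowest value in GFP-low monocytes, at 7.56.

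The bases before the annotated starts are shown for a few of the subunits. Whether they bear on the low values in granulocytes was not tested. The RefSeq table of GRCm38.p6 held a promoter for 25 of the 31 subunit genes, 27 promoters in all, and none was used for Psmb1, Psmb2, Psmb7, Psmc3, Psmd3 and Psmd7. The 250 bases before each start were searched on both strands for 6 short motifs, and no match overlapped one of a different motif. The ETS motif CCGGAAG, read as CTTCCGG on the reverse strand, was in 9 of 25 subunit genes (36.0%), against 7.83% of all 27025 genes of the table and 16.3% of the 7040 array genes above the floor. It was in 1 of 11 core genes, Psma6, and in 8 of 14 regulatory genes, Psmc1, Psmc2, Psmc6, Psmd2, Psmd4, Psmd6, Psmd11 and Psmd12. Psma6 and Psmc2 each had 2 promoters, and so 2 places for a match. The ETS letters stood before 1 of the 2 starts of Psma6 and before both of Psmc2. The 5 stretches that follow show this match in capitals in a core gene and 4 regulatory genes, read 5′ to 3′ on the strand of the gene.
Psma6, chr12:55398663-55398729, plus strand: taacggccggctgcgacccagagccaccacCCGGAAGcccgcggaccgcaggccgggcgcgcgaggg
Psmc1, chr12:100110144-100110201, plus strand: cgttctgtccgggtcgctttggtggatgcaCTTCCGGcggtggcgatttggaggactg
Psmd2, chr16:20651596-20651651, plus strand: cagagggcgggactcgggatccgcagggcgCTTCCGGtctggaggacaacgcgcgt
Psmd6, chr14:14120954-14121020, minus strand: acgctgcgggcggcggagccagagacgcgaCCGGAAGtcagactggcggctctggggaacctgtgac
Psmd12, chr11:107479481-107479527, plus strand: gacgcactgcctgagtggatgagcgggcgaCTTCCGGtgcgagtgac

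The antioxidant response element core TGACNNNGC (GCNNNGTCA in reverse), the letters that Nfe2l1 and Nfe2l2 recognise with small Maf partners, was in 4 of 25 subunit genes (16.0%), against 11.5% of all genes and 13.9% of the array genes above the floor. These were the catalytic Psmb5 and Psmb6 and the regulatory Psmc6 and Psmd12. The match is shown in capitals for both catalytic genes.
Psmb5, chr14:54618004-54618072, minus strand: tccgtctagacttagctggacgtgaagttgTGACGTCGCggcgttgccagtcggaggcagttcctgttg
Psmb6, chr11:70525318-70525356, plus strand: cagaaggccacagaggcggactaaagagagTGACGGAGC

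CCAAT, the box bound by NF-Y, which reads ATTGG in reverse, was in 10 of 25, against 37.5% and 40.4% of the same sets of genes. CGCATGCG, the palindromic inner part of the motif of nuclear respiratory factor 1 (NRF1, not Nfe2l1), was in Psma2 alone among them (4.0%, against 1.75% and 3.64%). Of the E2F forms, TTTGGCGC (GCGCCAAA in reverse) was in 0 (against 0.485% and 0.994%) and TTTCCCGC (GCGGGAAA in reverse) in 1, Psmc4 (against 1.03% and 2.13%). The median GC content of the subunit promoters was 54.8%, against 52.4% for all. The 9 subunits with the ETS letters had a median log2 difference between granulocytes and GFP-low monocytes of -0.72, and the 16 with a promoter but without them had one of -0.82. A match is a description of these letters and not of a bound site, and the difference between these medians was not tested.

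The alpha ring, whose subunits frame the channel into the core, held the 3 largest differences between granulocytes and GFP-low monocytes. Psma7 read log2 11.03 in Gfi1-deficient, 9.68 in GFP-high and 10.91 in GFP-low monocytes and 9.25 in granulocytes. It was thus high on the arrays of Gfi1-deficient and GFP-low monocytes and low on the others. Psma5 read 10.20, 9.79, 9.98 and 8.68 in the same order of arrays, with the granulocytes alone low. Psma4 read 10.88, 10.43, 10.88 and 9.41, with a log2 difference of -0.0001 between Gfi1-deficient and GFP-low monocytes. Psma6, a further alpha subunit, read 11.05, 11.28, 10.73 and 10.43, highest in GFP-high monocytes. Psma1 had the smallest range of the ring, with 10.78, 10.75, 10.68 and 10.12.

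In granulocytes against GFP-low monocytes, Psma7 was 3.15-fold, Psma4 2.78-fold and Psma5 2.48-fold lower. The other alpha subunits stood between -0.94 (Psma3) and -0.30 (Psma6) on the log2 scale. The median of the 7 alpha genes was -0.94. A second probe set of Psma7 gave a log2 difference of -1.74 beside the -1.65 of the first, and one of Psma5 gave -1.38 beside -1.31. Pseudogenes named for Psma5, and for the catalytic Psmb5, Psmb6 and Psmb7, stand in the gene table, and whether the probe sets also read them was not tested.

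The catalytic beta subunits carry the active sites of the core. Psmb5, the subunit with chymotrypsin-like activity, read 10.65, 10.50, 10.29 and 9.75 on the arrays of Gfi1-deficient, GFP-high and GFP-low monocytes and granulocytes. Psmb6, with caspase-like activity, read 10.04, 9.74, 9.78 and 8.87, and Psmb7, with trypsin-like activity, read 11.23, 11.27, 11.10 and 10.39. All 3 were lowest in granulocytes (36.7% of 8621 genes). They stood 1.46-fold, 1.87-fold and 1.64-fold below GFP-low monocytes, and 0 of 3 reached 2-fold (18.2% of 8503 genes). Among the 3 monocyte arrays the largest difference in these genes was 0.35, for Psmb5 between Gfi1-deficient and GFP-low monocytes.

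Among the beta subunits without catalytic sites, Psmb1 read 11.22, 10.73, 10.82 and 9.87 and Psmb4 read 11.43, 11.07, 11.24 and 10.35. Psmb3 had the smallest range, with 10.80, 10.59, 10.52 and 10.34. Granulocytes were the lowest array for each of them (36.7% of 8621 genes), by 0.96, 0.90 and 0.18 on the log2 scale against GFP-low monocytes. The value for Psmb3 was the smallest of all 31 subunits in this comparison and lay within the probe-set SD of 0.37. A second probe set of Psmb1 of much lower signal, 6.56 to 6.72, gave a log2 difference of -0.02 in place of -0.96.

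The ATPase ring of the base unfolds substrates and threads them into the core. Psmc1 read 9.06, 8.83, 8.57 and 7.76, and Psmc3 read 10.63, 10.71, 10.28 and 9.46. Psmc6 had the smallest range, with 9.34, 9.55, 9.24 and 8.90. Granulocytes were lowest in all 6 ATPase genes (36.7% of 8621 genes). The differences against GFP-low monocytes ran from -0.89 (Psmc5) to -0.34 (Psmc6), with a median of -0.81. The value of Psmc6 lies within the probe-set SD of 0.37, and its second probe set gave -0.09. Against GFP-high monocytes, 3 of 6 reached 2-fold (16.4% of 8457 genes), with Psmc3 2.39-fold and Psmc1 2.10-fold lower.

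Of the other base subunits, Psmd2, a large scaffold subunit that docks proteins delivering ubiquitinated substrates, read 10.07, 9.80, 9.82 and 8.64 and was 2.25-fold lower in granulocytes than in GFP-low monocytes. Psmd1, the other large scaffold, read 9.39, 9.36, 9.19 and 8.45. Psmd4, a receptor for ubiquitin chains, read 10.10, 9.90, 10.07 and 9.85 and had the smallest range of all 31 subunits. Its 3 probe sets did not have the same sign in granulocytes against GFP-low monocytes, with -0.23, -0.12 and 0.82, so no direction is given for Psmd4. The third of these probe sets read 7.99 in granulocytes against 7.02 to 7.24 on the monocyte arrays.

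In the lid, Psmd7, the partner of the deubiquitinase Psmd14, read 8.22, 7.99, 7.70 and 6.55 and was 2.22-fold lower in granulocytes than in GFP-low monocytes. A second probe set near the floor (5.65 to 5.88) gave -0.08, so the value of Psmd7 rests on 1 probe set. Psmd6, a lid scaffold subunit, read 9.98, 9.91, 9.77 and 8.78, and Psmd13, another, read 8.96, 8.77, 8.65 and 8.23. Psmd14, which cleaves the ubiquitin chain from the substrate, read 10.55, 10.87, 10.25 and 9.86, highest in GFP-high monocytes. Psmd8, a small lid subunit, read 11.11, 10.30, 10.94 and 10.13 and so shared the grouping of Psma7, high in Gfi1-deficient and GFP-low monocytes. Granulocytes were the lowest array for all 8 lid genes of the symbol rule (36.7% of 8621 genes), with a median of -0.76 against GFP-low monocytes. Sem1, a lid subunit outside the rule, was instead highest in granulocytes, at 11.72.

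Counted over the subunits of the symbol rule, granulocytes read below GFP-low monocytes for 31 of 31, against 50.0% of 8503 genes. Each gene is counted by its probe set of highest mean, also Psmd4, whose probe sets differed in sign. Sem1, a lid subunit outside the rule, is not counted and read 0.34 higher in granulocytes. The median log2 difference of the subunits was -0.80, that of all genes was 0.00, and the lower quartile of all genes was -0.715. At least 1.5-fold lower were 20 of 31 (28.7% of all genes) and at least 2-fold lower 5 of 31 (18.2%), which were Psma7, Psma4, Psma5, Psmd2 and Psmd7. The share at 2-fold is close to the background. Beyond the probe-set SD of 0.37 stood 27 of 31 (35.6%). Among the 787 genes at or above the mean level of the median subunit, 19.9% were at least 2-fold lower.

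Granulocytes also read below GFP-high monocytes for 31 of 31 subunits (47.9% of 8457 genes), with a median of -0.87, 25 subunits at least 1.5-fold lower (25.6%) and 9 at least 2-fold lower (16.4%). Against Gfi1-deficient monocytes it was again 31 of 31 (50.2% of 8520 genes), with a median of -0.98, 27 at least 1.5-fold lower (30.6%) and 15 at least 2-fold lower (20.3%). The 3 comparisons share the array of granulocytes, so they are not independent of each other. The largest differences were those of Psmd7 against GFP-high monocytes (2.71-fold) and of Psma7 against Gfi1-deficient monocytes (3.42-fold). A second probe set of Psmd7, near the floor, gave 0.035 on the log2 scale against GFP-high monocytes.

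The core and the regulatory particle were set side by side by their medians. In granulocytes against GFP-low monocytes the median was -0.81 over the 14 core genes and -0.80 over the 17 regulatory genes. Against Gfi1-deficient monocytes it was -0.99 and -0.98, and against GFP-high monocytes -0.75 and -0.92. The core minus regulatory differences of these medians, in the same order, were -0.0037, -0.0078 and 0.17. Among the monocyte arrays they were -0.14 for GFP-high minus GFP-low, -0.098 for Gfi1-deficient minus GFP-low and 0.067 for Gfi1-deficient minus GFP-high monocytes. With plain probe sets only (identifiers of digits and _at), which 23 subunits have above the floor, the difference for granulocytes against GFP-low monocytes turned to 0.11 and that against Gfi1-deficient monocytes to 0.24. None of these differences was tested. In granulocytes against GFP-low monocytes the spread among the core genes (SD 0.43) was wider than that among the regulatory genes (SD 0.28), with Psma7 and Psmb3 at its ends. Against GFP-high monocytes it was narrower, with SDs of 0.22 and 0.37.

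**Figure D2:**
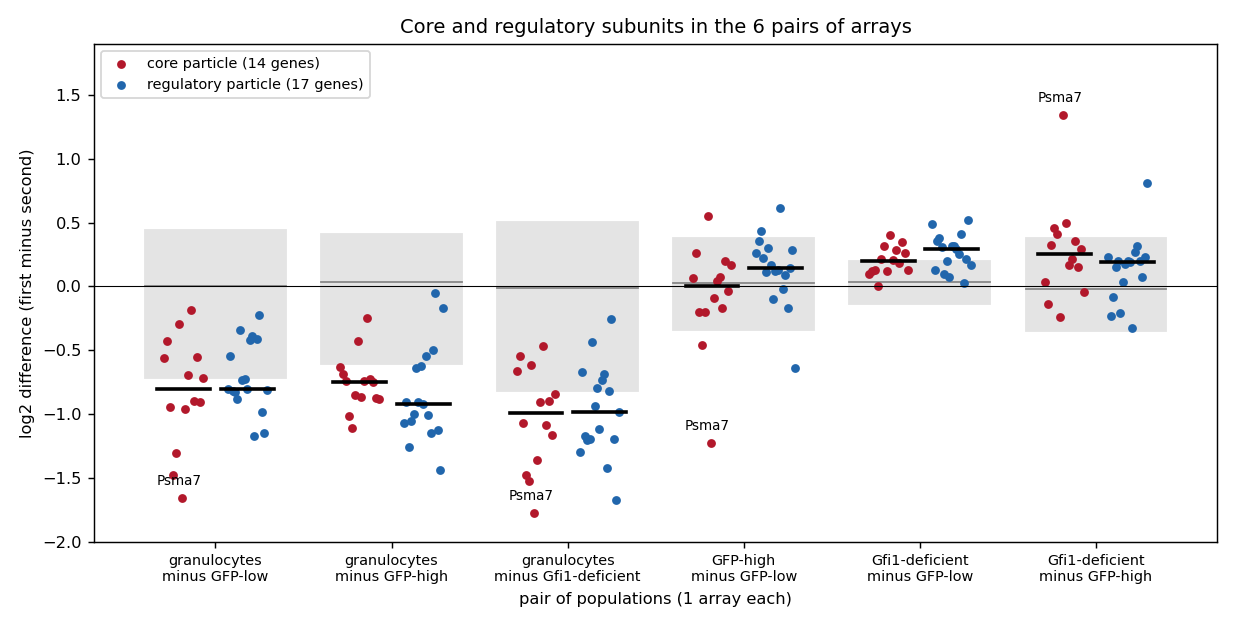
Log2 difference (vertical axis, first population minus second) of each core gene (red, 14) and each regulatory gene (blue, 17) in the 6 pairs of arrays, with the median of each particle as a black bar, the middle 50% of all genes above the floor as a grey box and their median as a grey line. Every point lies under 0 in the 3 pairs with granulocytes, where core medians run from -0.99 to -0.75 and regulatory medians from -0.98 to -0.80, and Psma7 is labelled in 4 pairs, at -1.65, -1.77, -1.23 and 1.34.

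Several probe sets of a subunit give the only repeat reading. Of the 31 subunits, 16 had more than 1 probe set, and in 14 at least 2 were above the floor. All of a subunit's probe sets above the floor had the same sign in granulocytes against GFP-low monocytes for 13 of these 14, all but Psmd4. This count was 11 of 14 against GFP-high monocytes and 10 of 14 against Gfi1-deficient monocytes. Among the monocyte arrays it was 8 of 14 for GFP-high against GFP-low, 10 of 14 for Gfi1-deficient against GFP-low and 9 of 14 for Gfi1-deficient against GFP-high monocytes. Psmd11, a lid subunit, had 6 probe sets, of which 4 were above the floor, with -0.72, -0.14, -0.47 and -0.67 in granulocytes against GFP-low monocytes.

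**Figure D3:**
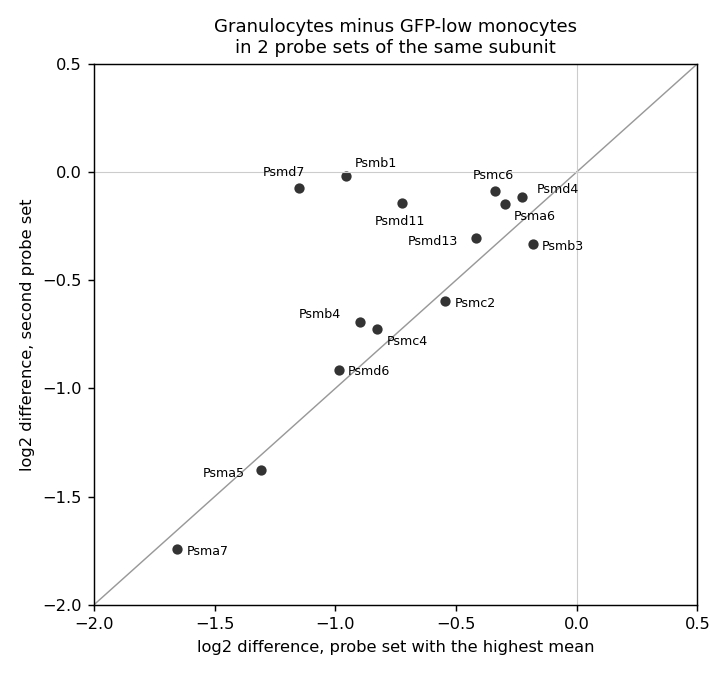
Log2 difference between granulocytes and GFP-low monocytes in the probe set with the highest mean (horizontal axis) and in the second probe set (vertical axis) of 14 subunits, with a grey line where both are equal. Psma7 and Psma5 lie on the line at -1.65 and -1.31, and Psmd7 and Psmb1 lie far above it, with -0.08 and -0.02 in the second probe set.

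GFP-high and GFP-low monocytes share genotype and Gr1 gate and differ in the reporter. The sum of primary granule markers was 45000 in GFP-high and 2020 in GFP-low monocytes, that of monocyte markers 1990 and 51400, and that of cell cycle markers 27400 and 12500, and their part in the subunit values was not tested. Here the subunits went both ways: 20 of 31 read higher in GFP-high monocytes (52.3% of 8232 genes) and 11 lower (47.5%), with a median of 0.11. At least 1.5-fold higher was 1 of 31, Psmd14 at 1.54-fold (17.1%). At least 1.5-fold lower were 2 (16.7%), Psma7 at 2.34-fold and Psmd8 at 1.56-fold. These shares lie below the background in both directions, and Psma7 was the 1 subunit at least 2-fold lower (9.61%). A second probe set gave -1.35 for Psma7, beside -1.23. The 6 ATPase genes all read higher in GFP-high monocytes, from 0.11 (Psmc5) to 0.44 (Psmc3), with a median of 0.28. Of these, Psmc2 and Psmc3 stood beyond the probe-set SD of 0.31. Over all 31 subunits, 4 stood beyond it on the higher side (28.6% of 8232 genes) and 3 on the lower side (26.4%).

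Gfi1-deficient and GFP-low monocytes share the surface gate and differ in genotype and in the sex-linked transcripts named above. They also differ in the sort, since GFP-low monocytes were split by the reporter and the Gfi1-deficient label names no GFP gate. These differences cannot be told apart here. In this order, the sums of primary granule markers were 11800 and 2020, of eosinophil markers 1970 and 305, and of cell cycle markers 14800 and 12500, and their part in the subunit values was not tested. Of the 31 subunits, 30 read higher in Gfi1-deficient monocytes (54.8% of 8010 genes) and 1 lower (44.9%), which was Psma4 at -0.0001. The median was 0.21, a fold of 1.16, against 0.03 for all genes and an upper quartile of 0.20. At least 1.5-fold higher were 0 of 31 (2.86%) and lower 0 of 31 (3.57%). The largest values were those of Psmd7, 1.44-fold, and Psmc1, 1.40-fold. A second probe set of Psmd7, near the floor, gave -0.23, and the probe sets of Psmc6, Psmd11 and Psmd4 also differed in sign in this pair. Higher beyond the probe-set SD of 0.17 stood 20 of 31 (28.9% of all genes), 8 of 14 core and 12 of 17 regulatory genes, and lower beyond it 0 of 31 (21.5%). The subunits thus differed by little each and nearly all in the same direction, and without a second array in either group the spread between mice for such a shift is unknown.

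Gfi1-deficient monocytes read above GFP-high monocytes for 24 of 31 subunits (48.4% of 8195 genes) and below for 7 (51.6%), with a median of 0.20. At least 1.5-fold higher were 2 (17.3%), Psma7 at 2.54-fold and Psmd8 at 1.75-fold, and lower 0 (15.6%). The 7 that read lower were Psma2, Psma6, Psmb7, Psmc2, Psmc3, Psmc6 and Psmd14, and the largest of these differences was -0.32 for Psmd14.

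Markers of dividing cells went with the place of the granulocytes. The sum of linear values of 11 cell cycle markers was 14800 in Gfi1-deficient, 27400 in GFP-high and 12500 in GFP-low monocytes and 3800 in granulocytes, and all 11 were above the floor on every array. The array of granulocytes was lowest in this sum, as in all 31 subunits, while the sum was highest in GFP-high monocytes, where 7 subunits had their highest value. The part of cell division in the subunit values was not tested. Of the other cell types that a sort of marrow cells could hold, the sums for B cell markers ran from 173 to 444, for T cell markers from 129 to 503 and for NK cell markers from 83.2 to 123 over the arrays. Those for erythroid markers ran from 387 to 1140, for eosinophil markers from 305 to 6700, for plasma cell markers from 1720 to 3620 and for macrophage markers from 1010 to 3110. The B, T and erythroid sums were highest and the plasma cell and macrophage sums lowest in granulocytes. The plasma cell sum rests mostly on Xbp1, which read 10.62 in granulocytes and 11.48 to 11.76 on the other arrays. Jchain and Prdm1 were instead lowest in GFP-high and Sdc1 in Gfi1-deficient monocytes. The T cell sum in granulocytes rests mostly on Cd3d, at 8.48. Gene by gene, most macrophage markers did not follow their sum. Against GFP-low monocytes, 5 of 6 read higher in granulocytes (50.0% of 8503 genes) and 1, Adgre1, lower at -1.82. Against Gfi1-deficient monocytes 5 of 6 were higher (49.7% of 8520 genes) and 1 lower. Against GFP-high monocytes 1 of 7 was higher (52.1% of 8457 genes) and 6 lower. The eosinophil and macrophage sums were highest in GFP-high monocytes. Pax5, Cd3g, Cd247, Ncr1, Gzmb, Hba-a1 and Il5ra were below the floor on all arrays. The part of these cell types was not tested.

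The chaperones of base assembly had their highest values in GFP-high monocytes. Psmd5 read 8.23 in Gfi1-deficient, 8.66 in GFP-high and 8.02 in GFP-low monocytes and 7.85 in granulocytes. Psmd9 read 7.31, 7.35, 7.04 and 6.53, and Psmd10, also known as gankyrin, read 7.82, 8.09, 7.56 and 7.84. GFP-high monocytes stood above GFP-low monocytes by 0.64, 0.31 and 0.53 on the log2 scale. Psmd5 and Psmd9 were lowest in granulocytes, as the subunits were. A second probe set of Psmd9 near the floor (5.06 to 5.65) was highest in granulocytes, by 0.37 against GFP-low monocytes, so the place of Psmd9 rests on 1 probe set. Psmd10 read higher in granulocytes than in GFP-low monocytes by 0.29, unlike each of the 31 subunits, and this lies within the probe-set SD of 0.37. Psma8 read 3.82 to 3.99, below the floor on all arrays. Psmc3ip read 6.28, 7.47, 6.00 and 5.32, and was 2.77-fold higher in GFP-high than in GFP-low monocytes and 4.44-fold lower in granulocytes than in GFP-high monocytes.

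The immunoproteasome genes, whose products take the place of Psmb5, Psmb6 and Psmb7, differed among themselves. Psmb8 read 10.67, 9.66, 10.78 and 9.71 on the arrays of Gfi1-deficient, GFP-high and GFP-low monocytes and granulocytes, and Psmb10 read 10.53, 8.79, 10.48 and 8.25. Both were high on the arrays of Gfi1-deficient and GFP-low monocytes and low on the others, as Psma7 was. Psmb9 read 9.58, 9.58, 9.82 and 9.81, with no difference between arrays above 0.24. Between GFP-high and GFP-low monocytes the log2 differences were -1.12 for Psmb8 and 0.20 for its counterpart Psmb5, and -1.69 for Psmb10 and 0.17 for its counterpart Psmb7.

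**Figure D4:**
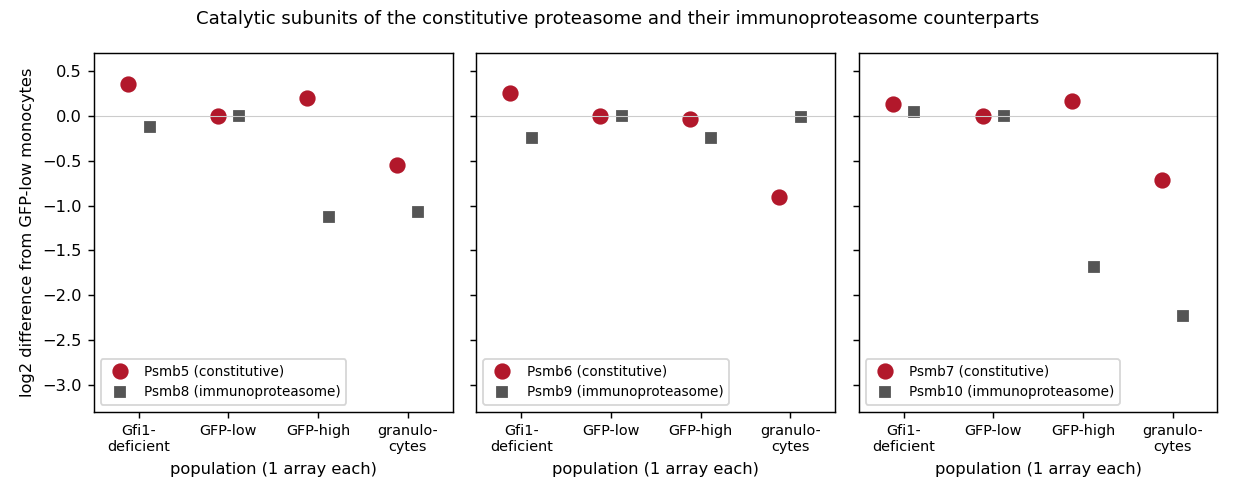
Log2 difference from GFP-low monocytes (vertical axis) of the catalytic genes Psmb5, Psmb6 and Psmb7 (red circles) and of their immunoproteasome counterparts Psmb8, Psmb9 and Psmb10 (grey squares) on the 4 arrays (horizontal axis), 1 panel for each pair. In GFP-high monocytes Psmb10 stands at -1.69 and Psmb7 at 0.17, and in granulocytes Psmb9 stands at -0.01 and Psmb6 at -0.90.

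Genes that build or serve the proteasome were set beside the subunits in granulocytes against GFP-low monocytes. Of 5 core assembly chaperones, 3 were at least 2-fold lower (18.2% of all genes, the background for each 2-fold count on the lower side in this pair), with a list median of -1.44. Psmg2, which pairs with Psmg1 to seed the alpha ring, was at least 6.79-fold lower, with a value of 5.03 in granulocytes, below the floor, and 7.94 in GFP-low monocytes. Psmg4 was 6.09-fold lower and Pomp, the maturation factor of the beta ring, 2.71-fold lower. Psmg3, the partner of Psmg4, stood at -0.07 and Psmg1 at -0.81. Between GFP-high and GFP-low monocytes Psmg1 stood at 1.34 and Psmg4 at -1.13, so the chaperones did not share a direction there.

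Of 7 shuttle factors and proteasome-bound deubiquitinases, 2 were at least 2-fold lower in granulocytes than in GFP-low monocytes (18.2% of all genes), the shuttle factors Ubqln2 (2.51-fold) and Rad23b (2.48-fold), with a list median of -0.21. The deubiquitinase Uchl5 was 2.71-fold higher in GFP-high than in GFP-low monocytes, the 1 gene of the 7 past 2-fold there (9.03% of all genes on the higher side). Of 4 activator and inhibitor genes, 0 were at least 2-fold lower (18.2% of all genes), with a median of -0.22, with Psme1 at -0.46 and Psme4 at -0.38 the farthest from 0. Sem1, a small lid subunit outside the symbol rule, read 0.34 higher in granulocytes, and 0.28 in a second probe set, both under the probe-set SD. Vcp, the p97 unfoldase that feeds substrates to the proteasome, stood at -0.44, and its cofactors Nploc4 and Ufd1 at 0.26 and 0.22, a list median of 0.22.

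Of 7 genes known to regulate proteasome transcription, 6 read higher in granulocytes than in GFP-low monocytes (50.0% of 8503 genes) and 1 lower, with a median of 0.51. The small Maf gene Mafg was 2.42-fold higher, and Ngly1, the glycanase that processes Nfe2l1, was 2.04-fold higher. Nfe2l1, the transcription factor that raises subunit genes when proteasome activity is short, stood at 0.47, and Nfe2l2, its relative in the oxidative stress response, at 0.55. Keap1, the adaptor for Nfe2l2 degradation, stood at -0.96. The value of Maff is a bound, since it was below the floor on the monocyte arrays.

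Other multi-subunit complexes were listed for scale. Of 8 genes of the CCT chaperonin, which folds actin and tubulin, 7 were at least 2-fold lower in granulocytes than in GFP-low monocytes (18.2% of all genes), with a median of -1.54, Tcp1 at -1.86 and Cct5 at -1.67. Of 9 genes of the COP9 signalosome, whose architecture resembles the proteasome lid, 1 was at least 2-fold lower (18.2% of all genes), Cops2 at -1.03, with Cops6 at -0.87 and a median of -0.37. The subunit median of -0.80 lay between those of the complexes. Shares of genes in lists of this size are descriptions, and none of these differences between lists was tested.

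**Figure D5:**
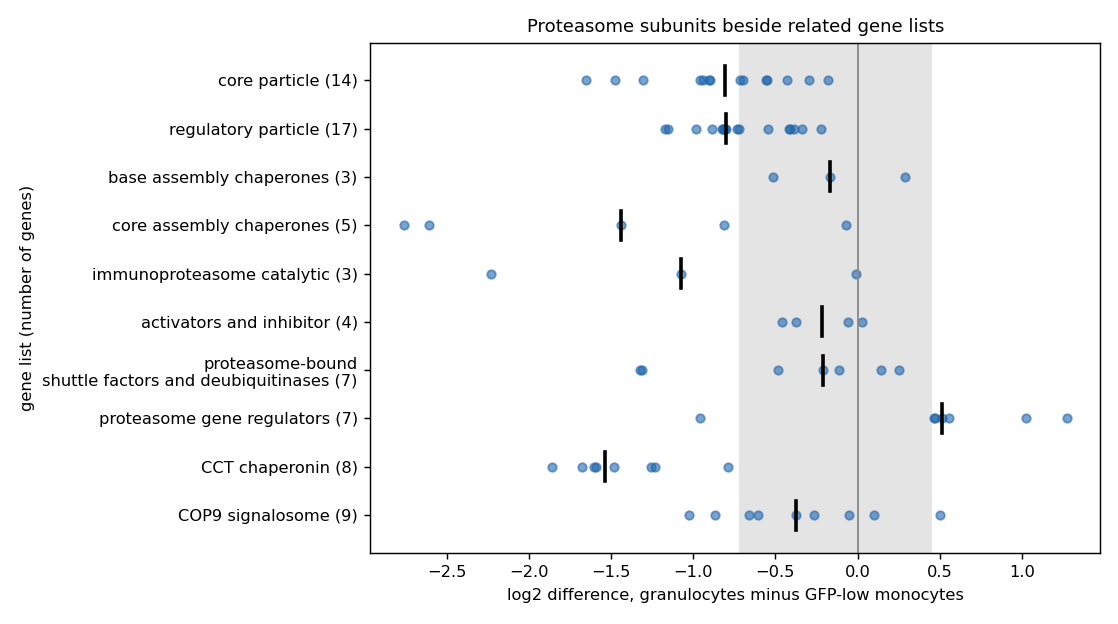
Log2 difference between granulocytes and GFP-low monocytes (horizontal axis) of each gene (blue points) in the core particle, the regulatory particle and 8 related lists (vertical axis, number of genes in brackets), with list medians as black bars, the middle 50% of all genes above the floor as a grey band and their median as a grey line. The medians run from -1.54 for the CCT chaperonin to 0.51 for the proteasome gene regulators, with core and regulatory subunits at -0.81 and -0.80.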

How the data were processed

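The deposited values, 1 for each of 22690 probe sets on each of 4 arrays (1 per population), were taken as log2 from their range of 2.70 to 14.50. The log base is not stated, and how the authors summarised and normalized the arrays is not given in the sources used here. Per the labels' protocols, TRIzol-extracted total RNA, 6 µg, gave the biotin-labelled cRNA by the maker's standard protocol. Probe sets were named from the platform annotation: 20393 had 1 gene, 691 several and 1606 none, and probe sets with several were not used. All 36 gene identifiers matched the gene table of GRCm38.p6.

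Values under the floor, the 40th percentile, were set to it, and where that touched 1 array of a pair the difference is a bound. Differences are the first population minus the second, over the 6 pairs of arrays. Genes were counted past 1.5-fold and 2-fold beside all genes above the floor on at least 1 array of the pair. The probe-set SD is the SD, over genes, of the gap between a gene's 2 highest probe sets in their log2 differences, over the square root of 2. No test was made, and the number of arrays limits the precision.

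The members and the lists (18 lists of genes and 11 of markers) were chosen with earlier results of these data known. Genes named with values on all 4 arrays are Psmb5, Psmb6, Psmb7, Psmd4, Psmd14, the 2 with the largest and the 1 with the smallest range in each class, and members outside the direction of the others. Of other lists, the 2 genes with the largest absolute difference in a pair are named. Others were named after their values were seen. Alternatives were other floors, quantile normalization, median centring, other probe sets, chaperones counted as regulatory, and a background of highly expressed genes. Scripts used Python 3.11.15, pandas 2.3.3, numpy 2.4.6 and matplotlib 3.10.9, and were tested on simulated data.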

Additional observations from a re-analysis of the deposited data

How the results depend on the processing

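Over 44 results and 8 alternative settings, 299 of 314 values stayed close to those reported and 15 moved. Close means within 1.5 times for a count and within the probe-set SD, a spread of single genes, for a median. Part of this agreement was fixed in advance. No subunit read below 6.55, so the floor at the 20th percentile could change none of these values. Many counts were 0 and stayed 0. A difference of medians near 0 could change its sign and still be called close. All 42 subunit medians kept their sign, that of granulocytes minus GFP-low monocytes running from -0.80 to -0.70. Of 48 core minus regulatory differences 44 kept their sign. The other 4 were granulocytes minus GFP-low, 0.11 with plain probe sets and 0.03 with the second probe set in place of -0.0037, and granulocytes minus Gfi1-deficient, 0.24 and 0.03 in place of -0.0078. Lowest in granulocytes were 30 of 31 subunits with median centring, 29 with the mean of all probe sets, 27 with the second probe set and 22 of 23 with plain probe sets. Only 14 subunits have a second probe set above the floor, and the rest kept the same probe set in that setting. With the mean of all probe sets, 3 subunits in place of 5 passed 2-fold on the lower side for granulocytes minus GFP-low, and 2 were highest in GFP-low monocytes, 1 highest in granulocytes and 2 lowest in GFP-high monocytes. Quantile normalization put 2 highest in GFP-low monocytes. Median centring put 0 there, 1 lowest in GFP-high monocytes, and 2 past 1.5-fold on the higher side for GFP-high minus GFP-low. With plain probe sets (identifiers ending in _at without _s, _x or _a), which 23 subunits have above the floor, 15 were highest and 1 lowest in Gfi1-deficient monocytes. With the second probe set by mean, chosen after seeing the data, 2 passed 1.5-fold on the higher side for GFP-high minus GFP-low, 1 on the lower side for Gfi1-deficient minus GFP-high, 2 highest in GFP-low, 3 lowest in Gfi1-deficient and 1 lowest in GFP-high monocytes. The cause was not tested. Against the 787 genes at or above the mean of the median subunit, the background at 2-fold lower was 19.9%, 16.1% and 20.7% for granulocytes minus GFP-low, GFP-high and Gfi1-deficient monocytes. Scaling moved the median of all genes by at most 0.0901 on the log2 scale. No paired analysis was possible because each group has 1 sample. Probe sets near the floor and single arrays limit every value.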

Other observations

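The deubiquitinase gene Usp14, which trims ubiquitin chains on the regulatory particle, had 3 probe sets that disagreed in granulocytes against GFP-low monocytes, with log2 differences of 0.25, -2.63 and -0.47. The second of them read 8.40 in Gfi1-deficient, 8.00 in GFP-high and 8.03 in GFP-low monocytes and 5.40 in granulocytes, so the count of shuttle factors and deubiquitinases depends on which probe set stands for Usp14. Psmg2 had a second probe set with -1.68 in the same comparison, the direction of the first.

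Of the COP9 signalosome, 2 genes had their highest value in GFP-high monocytes and passed 2-fold against GFP-low monocytes. Cops8 read 8.01 in Gfi1-deficient, 9.08 in GFP-high and 7.90 in GFP-low monocytes and 8.41 in granulocytes, and Cops3 read 9.30, 10.22, 9.07 and 9.02. The list holds 9 genes, and 9.03% of all genes passed 2-fold on the higher side for GFP-high minus GFP-low. Uchl5, with 9.06, 10.23, 8.80 and 8.68, had the same highest array.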
